A study of Saccharomyces cerevisiae with 6 samples.

Results

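A pair of mutant forms of the yeast TRA1 gene was set against each other in mRNA levels on Agilent dual-colour arrays, tra1_SRR3413 and tra1_P3408A. Both alleles are named after residues of the PI3K-like domain of Tra1. The quantity compared was the log2 ratio of mutant over reference strain, tra1_SRR3413 minus tra1_P3408A, array 1 minus array 1 and array 2 minus array 2, for all gene probes. The comparison used 4 of the series' 6 arrays, 2 for each allele. The remaining arrays, of tra1_S3463A, entered the main fit only for its estimate of the spread. In some alternative fits given below they also entered the difference. Every strain of Saccharomyces cerevisiae here, the reference included, had Tn10LUK inserted in its chromosomal TRA1 and depended on a myc-tagged copy on YCplac111, a centromeric plasmid with LEU2. Strain CY1531 carried tra1_SRR3413 on it, strain CY1507 carried tra1_P3408A, and the reference strain CY1524 carried TRA1_SB. Each allele was thus read in 1 strain, and the submitters call the arrays of an allele dye-swapped biological replicates.

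Tra1 is a very large protein that lacks kinase activity and is shared by SAGA and NuA4, complexes that acetylate histones and activate transcription by RNA polymerase II. It is the surface on which many activators dock to bring these complexes to promoters. In budding yeast SAGA acts strongly at stress-inducible and nutrient-regulated genes, and NuA4 at ribosomal protein genes among others. The comparison asks whether a pair of mutations in the same domain leaves the same expression profile or profiles that differ gene by gene.

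The mutant was labelled with Cy5 on array 1 and with Cy3 on array 2 of each allele, so a pair compares arrays of the same dye orientation. Pair 1 lay on slide 1, whereas pair 2 spanned slide 3 (tra1_SRR3413) and slide 2 (tra1_P3408A). A fit with the slide as a block, given below as an alternative, drops the array number. It links slides 2 and 3 only through the arrays of tra1_S3463A, whose dye orientations differ, so its differences draw on that allele. Fits that leave out an array of a compared allele draw on it too. Median Cy3 signal was 2760 on array 2 of tra1_SRR3413, against 1434 on its array 1 and 1277 and 1167 on the arrays of tra1_P3408A. On these 4 arrays 99.3% to 99.6% of spots for genes cleared the background in both dyes. Some labels conflict. For tra1_S3463A the source label of array 1 gives the strain with tra1_SRR3413, the reference source of array 2 of tra1_SRR3413 names Cy3 where its label field has Cy5, and the descriptions of all arrays name tra1_P3408A alone. Titles and label fields were followed. Values below are log2 ratios, or differences of log2 ratios (positive: higher in tra1_SRR3413), and the number of arrays limits their precision.

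TRA1 mRNA itself stood at 0.94 and 1.93 in tra1_SRR3413, against 0.83 and 1.21 in tra1_P3408A. All 4 arrays lay above the reference strain, and the difference between the alleles was 0.42 (0.11 in pair 1 and 0.73 in pair 2), which did not pass (limma, adjusted p = 0.416) and was -0.026 with the slide as a block. LEU2, the marker of the plasmid, stood at -0.37 and -0.43 in tra1_SRR3413, against -0.08 and -0.26 in tra1_P3408A, a difference of -0.23 (adjusted p = 0.432). URA3, an enzyme of pyrimidine synthesis and a common marker, differed by -0.11 (adjusted p = 0.620). Mating type was checked because haploid yeast of opposite mating types differ in a small set of genes. Differences lay between -0.91 and -0.01 over the 7 tested a-specific genes and between 0.03 and 0.42 over the 4 alpha-specific genes. The outermost of them were BAR1, the protease that degrades alpha factor, at -0.91 (-0.45 in pair 1 and -1.37 in pair 2), and STE3, the receptor for a factor, at 0.42 (0.13 in pair 1 and 0.71 in pair 2). Neither passed.

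No gene passed as different between the alleles. Of 6119 genes tested in limma, 0 were higher and 0 were lower in tra1_SRR3413 at an adjusted p of 0.05 (0% in each direction), and the lowest adjusted p was 0.112. At an unadjusted p of 0.05, 364 genes (5.95%) were higher and 378 (6.18%) lower. The median 95% interval reached 0.29 on either side of a gene's difference, and for 5862 genes (95.8%) the whole interval lay within 2-fold. These intervals take their spread from all 6 arrays. The prior residual SD in limma was 0.119 there, and 0.156 with only the 4 arrays of both alleles. Only 8 genes had a mean difference of 1 or more, 3 with the higher level in tra1_SRR3413 and 5 with the lower. A miss of the threshold in this small design does not show that the alleles act alike.

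The pairs differed in spread. Over the 6119 genes the SD of the difference was 0.179 in pair 1, which shared a slide, and 0.399 in pair 2, which did not, and 10 genes in pair 1 and 137 in pair 2 were 1 or more apart. The mutant channels, Cy5 in pair 1 and Cy3 in pair 2, carried most of that gap. Their SD was 0.223 in pair 1 and 0.460 in pair 2, against 0.149 and 0.179 in the reference channels. The sign was the same in both pairs for 3571 genes (58.4%), with 1772 positive in both (29%) and 1799 negative in both (29.4%). Across genes, which are not independent replicates, the pairs correlated at a Pearson r of 0.208 (Spearman rho 0.241). The part of slide, array, dye or culture in the spread of pair 2 cannot be told apart.

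The count of 0 rested on both arrays of tra1_P3408A. With array 1 of tra1_P3408A left out, limma called 1480 genes higher and 1366 lower, and with array 2 left out, 255 higher and 276 lower. In those fits a lone tra1_P3408A array is assumed to vary like the other alleles, and the spread comes only from the arrays of tra1_SRR3413 and tra1_S3463A, whose deviations correlated at 0.930. There limma gave every gene the same spread (infinite prior degrees of freedom, prior residual SD 0.084). These counts are therefore not comparable with that of the main fit. Of the 318 genes called in both fits (11.2% and 59.9% of the calls), 109 were higher in both, 129 were lower in both and 80 had opposite signs. Leaving out any other array gave 0.

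**Figure D1:**
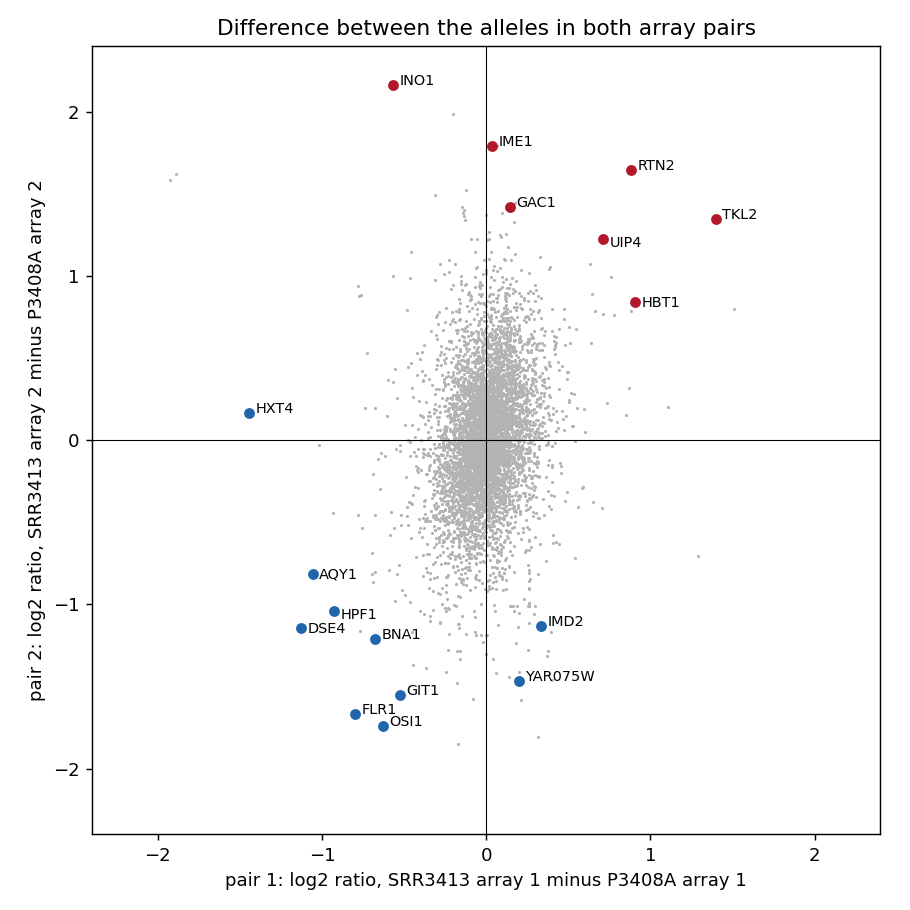
Difference in log2 ratio, tra1_SRR3413 minus tra1_P3408A, in pair 1 (x axis) and pair 2 (y axis), 1 grey point per gene for 6119 genes. Named genes are red where their mean is positive and blue where it is negative. The cloud is narrower along pair 1 (SD 0.179) than along pair 2 (SD 0.399), and TKL2 and DSE4 lie far out on the diagonal while INO1 and HXT4 are far out in 1 pair only.

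TKL2 had the largest statistic and the largest difference of the genes tested. It encodes the minor transketolase of the pentose phosphate pathway, which makes NADPH and ribose phosphate. TKL2 stood at 1.36 and 2.70 in tra1_SRR3413, against -0.03 and 1.35 in tra1_P3408A, so that tra1_SRR3413 was the higher in each pair by nearly the same amount (1.40 in pair 1 and 1.35 in pair 2). The mean difference was 1.37, or 2.59-fold (95% interval 1.12 to 1.62), with an adjusted p of 0.112. Without tra1_P3408A array 1 or 2 it was 1.38 and 1.36. With the slide as a block, which drops the dye pairing and draws on tra1_S3463A, it was 0.89, outside both pair values. With array 1 of tra1_S3463A counted as tra1_SRR3413 it was 1.01. The adjusted p of TKL2 in limma was 0.470 with only the 4 arrays of both alleles and 0.998 without the replicate block. YBR116C, a dubious reading frame that overlaps TKL2, differed by 1.15 (1.51 in pair 1 and 0.80 in pair 2), and whether its probe reads TKL2 RNA was not tested. Other minor isoforms of the pathway lay on the same side. NQM1, a transaldolase, differed by 0.53 (0.48 in pair 1 and 0.58 in pair 2), and GND2, a 6-phosphogluconate dehydrogenase, by 0.53 (0.40 in pair 1 and 0.67 in pair 2). Both were below the reference strain on all 4 arrays, and less far in tra1_SRR3413 of each pair. Over the 14 tested genes of the pathway the median difference was 0.15, against 0.00 over all genes, and 3 were higher, against 5.95% of all genes, and 1 lower, against 6.18%, at an unadjusted p of 0.05. With the slide as a block that median was -0.09.

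Several of the next genes belong to the general stress response, which the activators Msn2 and Msn4 switch on when cells starve or are stressed. OM45, a protein of the outer mitochondrial membrane, stood at -0.22 and -0.34 in tra1_SRR3413, against -0.88 and -1.13 in tra1_P3408A. TFS1, an inhibitor of carboxypeptidase Y, stood at 0.49 and 0.93 in tra1_SRR3413, against -0.22 and 0.16 in tra1_P3408A. RTN2, a reticulon of the endoplasmic reticulum, stood at -0.99 and 0.24 in tra1_SRR3413, against -1.87 and -1.40 in tra1_P3408A. In each of these genes both tra1_SRR3413 arrays lay above both tra1_P3408A arrays, and the differences were 0.72, 0.74 and 1.26. OM45 stayed below the reference strain in both alleles, and TFS1 above it in tra1_SRR3413. None passed (adjusted p = 0.394, 0.409 and 0.409). Catalase T, CTT1, differed by 0.50, mainly in pair 1 (0.85 in pair 1 and 0.15 in pair 2). DDR2 differed by 0.45 (0.28 in pair 1 and 0.63 in pair 2) and MSC1 by 0.48 (0.41 in pair 1 and 0.55 in pair 2).

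Over the 28 tested genes of the general stress list, 12 were higher in tra1_SRR3413 at an unadjusted p of 0.05, against 5.95% of all genes, and 0 were lower, against 6.18%. A positive difference in both pairs was seen in 18, against 29% of all genes, and a negative one in both pairs in 0. The median difference was 0.39, with 0.25 in pair 1 and 0.34 in pair 2, and 0.20 with the slide as a block. The list's median ratio was -0.22 in tra1_SRR3413 and -0.52 in tra1_P3408A, below the reference strain in both. HSP26, a small heat shock protein, went the other way on average (-0.38) with 0.25 in pair 1 and -1.01 in pair 2, and its spots were saturated on all 4 arrays.

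Genes of trehalose and glycogen metabolism, the storage carbohydrates that yeast builds up as growth slows, lay on the same side. Of 20 tested, 18 had a positive mean difference, 6 were higher at an unadjusted p of 0.05, against 5.95% of all genes, and 0 were lower, against 6.18%. PGM2, the main phosphoglucomutase, which supplies glucose 1-phosphate, stood at -0.23 and -0.15 in tra1_SRR3413, against -0.87 and -0.74 in tra1_P3408A. TPS1 and TPS2, the synthase and phosphatase that make trehalose, differed by 0.47 and 0.43, and their partner subunit TSL1 by 0.72 (0.39 in pair 1 and 1.05 in pair 2). UGP1, which makes UDP-glucose, differed by 0.46, and NTH1, the trehalase that breaks trehalose down, by 0.59 (0.28 in pair 1 and 0.90 in pair 2). The list therefore held genes of synthesis and of breakdown on the same side. Its median difference was 0.46, with 0.09 in pair 1 and 0.59 in pair 2, and 0.10 without array 2 of tra1_P3408A. GAC1, which targets a phosphatase to glycogen synthase, shows how a mean can rest on 1 pair (0.15 in pair 1 and 1.42 in pair 2).

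Most heat shock chaperones, the targets of Hsf1, had positive differences, with exceptions. HSP42, a small heat shock protein that gathers misfolded proteins, stood at -0.16 and 0.22 in tra1_SRR3413, against -0.81 and -0.67 in tra1_P3408A, a difference of 0.77 (adjusted p = 0.396). BTN2 and its paralog CUR1, which sort aggregated proteins, differed by 0.88 and 0.60. The disaggregase HSP104 differed by 0.62, mainly in pair 2 (0.21 in pair 1 and 1.04 in pair 2). The Hsp70 SSA3 differed by 0.44 (0.44 in pair 1 and 0.43 in pair 2), the Hsp90 HSP82 by 0.42 (0.25 in pair 1 and 0.60 in pair 2) and MBF1, a transcriptional coactivator, by 0.64 (0.48 in pair 1 and 0.80 in pair 2). HSP10, the mitochondrial co-chaperonin, lay on the other side at -0.42 (-0.32 in pair 1 and -0.52 in pair 2). Of the 30 tested, 10 were higher, against 5.95% of all genes, and 1 lower, against 6.18%, at an unadjusted p of 0.05. The median difference was 0.23, with 0.12 in pair 1 and 0.33 in pair 2, and 0.086 with the slide as a block. HSP104 and SSA3 are also in the general stress list, so the lists are not separate evidence.

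The other genes with large statistics on this side have varied roles. HBT1, which encodes a partner of the ubiquitin-like protein Hub1, stood at -0.42 and 0.91 in tra1_SRR3413, against -1.32 and 0.07 in tra1_P3408A, a difference of 0.87 (adjusted p = 0.394). GCY1, an aldo-keto reductase of glycerol breakdown, stood at -0.18 and -0.14 in tra1_SRR3413, against -1.06 and -0.93 in tra1_P3408A, with the arrays of each allele close together and 1.78-fold apart between alleles. PHM7, named for phosphate metabolism, stood at 0.84 and 1.29 in tra1_SRR3413, against 0.06 and 0.53 in tra1_P3408A. SIP4, an activator of gluconeogenic genes, stood at 0.65 and 1.28 in tra1_SRR3413, against 0.01 and 0.20 in tra1_P3408A. In all of these both tra1_SRR3413 arrays exceeded their tra1_P3408A partners, but none passed. By 0.5 or more in both pairs, 16 genes (0.261%) were higher in tra1_SRR3413 and 21 (0.343%) were lower.

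**Figure D2:**
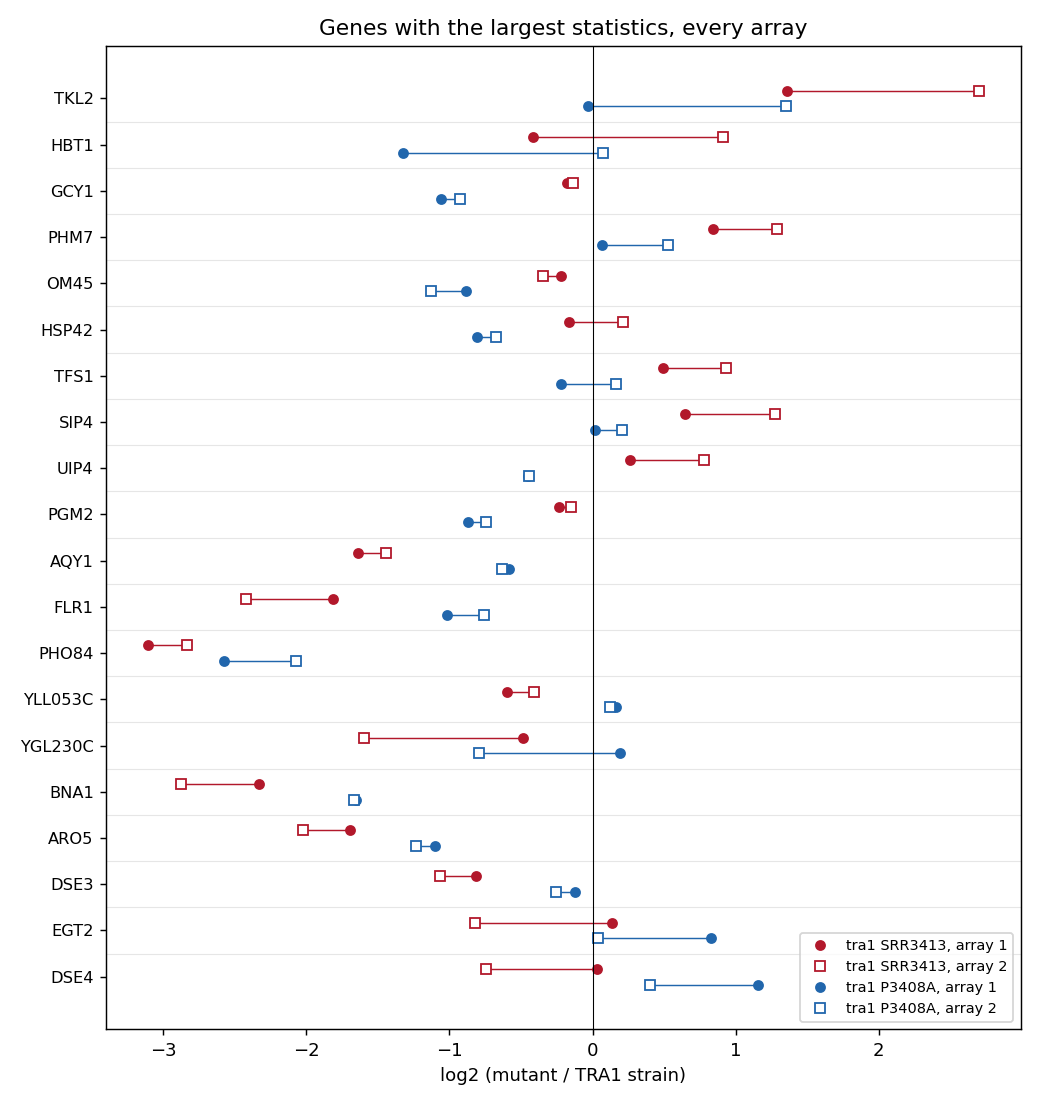
Log2 ratio of mutant over reference strain on every array for the 10 genes with the largest positive and the 10 with the largest negative moderated statistic, tra1_SRR3413 (red, above) and tra1_P3408A (blue, below), array 1 filled and array 2 open. Lines join the arrays of an allele. TKL2 and HBT1 shift by more than 1 between the arrays of an allele, by about as much in both alleles, while GCY1 and PGM2 keep their arrays close together.

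Among the genes lower in tra1_SRR3413, several encode enzymes that daughter cells secrete to cut the septum after cytokinesis. DSE4, a daughter-specific glucanase, stood at 0.03 and -0.74 in tra1_SRR3413, against 1.15 and 0.40 in tra1_P3408A, a difference of -1.14 or 2.20-fold (95% interval -1.51 to -0.76, adjusted p = 0.394). The pair values were nearly equal (-1.13 in pair 1 and -1.15 in pair 2). EGT2, a cell wall glucanase of cell separation, stood at 0.13 and -0.82 in tra1_SRR3413, against 0.83 and 0.04 in tra1_P3408A. DSE3 stood at -0.82 and -1.07 in tra1_SRR3413, against -0.12 and -0.25 in tra1_P3408A. In all of these each tra1_SRR3413 array lay below its tra1_P3408A partner, and the EGT2 arrays of the alleles overlap. DSE2 stood at -0.26 and -0.17 in tra1_SRR3413, against 0.44 and 0.52 in tra1_P3408A, below the reference strain in tra1_SRR3413 and above it in tra1_P3408A. SCW11, another wall glucanase, differed by -0.69 (-0.93 in pair 1 and -0.44 in pair 2), and DSE1 by -0.45 (-0.69 in pair 1 and -0.21 in pair 2). CTS1, the chitinase that dissolves the primary septum, had opposite signs in the pairs (-0.74 in pair 1 and 0.20 in pair 2).

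A list of such genes, put together after these values were seen and so given without a test, had 12 tested members. Of these 6 were lower, against 6.18% of all genes, and 0 higher, against 5.95%, at an unadjusted p of 0.05. A negative difference in both pairs was seen in 9, against 29.4% of all genes, and the median was -0.38, with -0.69 in pair 1 and -0.14 in pair 2. The list's median was -0.72 without array 2 of tra1_P3408A and -0.13 without its array 1. In bulk RNA, fewer cells at a stage of the cycle and less RNA per cell cannot be told apart. Of 24 genes of G1 cyclins and S phase, EGT2 among them, 2 were higher, against 5.95% of all genes, and 1 lower, against 6.18%, at an unadjusted p of 0.05. Their median was -0.01 (0.22 in pair 1 and -0.26 in pair 2). HPF1, a cell wall mannoprotein, stood at -0.21 and -1.10 in tra1_SRR3413, against 0.72 and -0.06 in tra1_P3408A, a difference of -0.98.

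The largest negative difference was that of FLR1, a multidrug transporter of the plasma membrane whose gene the activator Yap1 controls. FLR1 stood at -1.82 and -2.42 in tra1_SRR3413, against -1.02 and -0.76 in tra1_P3408A, below the reference strain on all 4 arrays and further below in tra1_SRR3413 (difference -1.23, 2.35-fold, adjusted p = 0.409). OSI1, named for its induction by oxidative stress, differed by -1.18 (-0.63 in pair 1 and -1.74 in pair 2). ATR1, another drug transporter, differed by -0.72 (-0.38 in pair 1 and -1.06 in pair 2), the glutathione transferase GTT2 by -0.88 (-0.37 in pair 1 and -1.39 in pair 2) and the glutathione peroxidase GPX2 by -0.43. In each the gap was wider in pair 2. Of the 25 tested genes of the Yap1 list, 4 were lower, against 6.18% of all genes, and 3 higher, against 5.95%, at an unadjusted p of 0.05, with CTT1 among the higher. A negative difference in both pairs was seen in 10, against 29.4% of all genes, and a positive one in 5, against 29%. The median was -0.06, and -0.22 without array 1 of tra1_SRR3413.

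The aryl-alcohol dehydrogenase genes, a family near chromosome ends whose members are close copies, lay lower in tra1_SRR3413 together. AAD4 stood at -3.61 and -3.33 in tra1_SRR3413, against -3.15 and -2.34 in tra1_P3408A, among the deepest values against the reference strain in tra1_SRR3413. AAD6 differed by -0.48 (-0.32 in pair 1 and -0.65 in pair 2), AAD15 by -0.75, mainly in pair 2 (-0.23 in pair 1 and -1.28 in pair 2), and AAD3 by -0.38. AAD3 was well above background in the mutant channel on 3 of the 4 arrays, and its difference was -2.02 in the series value table and -1.05 in the deposited log ratios. Each of the 6 tested members was negative in both pairs, against 29.4% of all genes, and 4 were lower at an unadjusted p of 0.05, against 6.18%. The median was -0.43, and -0.24 without array 2 of tra1_P3408A. Probes of such copies may read each other's RNA, so the members are uncertain as separate genes.

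AAD3 is also the last tested gene on the right arm of chromosome III, and its neighbours lay on the same side. By the gene order of the RefSeq R64 table, the last 10 tested genes there, from HMRA1 to AAD3, had a median difference of -0.47, with -0.39 in pair 1 and -0.59 in pair 2. All 10 were below 0 on average, 9 were negative in both pairs, against 29.4% of all genes, and 7 were lower at an unadjusted p of 0.05, against 6.18%. The largest were GIT1, a transporter of glycerophosphoinositol, which stood at -1.07 and -1.27 in tra1_SRR3413, against -0.54 and 0.29 in tra1_P3408A, and YCR099C, which stood at -1.48 and -0.90 in tra1_SRR3413, against -0.71 and 0.26 in tra1_P3408A. YCR101C differed by -0.68, YCR102C by -0.71, EMA35 by -0.43, RDS1, a zinc cluster regulator, by -0.49, and ADH7, an alcohol dehydrogenase, by -0.45. ADH7 was well above background in the mutant channel on 3 of the 4 arrays, and in the deposited log ratios it differed by -1.09 and YCR102C by -1.33. PAU3, of a large family of near copies, had opposite signs in the pairs (0.05 in pair 1 and -0.34 in pair 2). In the 10 tested genes before HMRA1 the median was 0.04, 4 were negative in both pairs and 0 were under an unadjusted p of 0.05. Of 5469 windows of 10 neighbouring tested genes over the nuclear chromosomes, this one had the lowest mean, -0.55, and the lowest that shared no gene with it had -0.34. The genes at all 32 chromosome ends together, 10 per end and 320 in all, had a median of 0.01, and 24 of them were lower at an unadjusted p of 0.05, against 6.18% of all genes. This stretch was picked after its values were seen, so its counts and rank are a description. With the mutant channels alone RDS1 stood at 0.061.

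**Figure D3:**
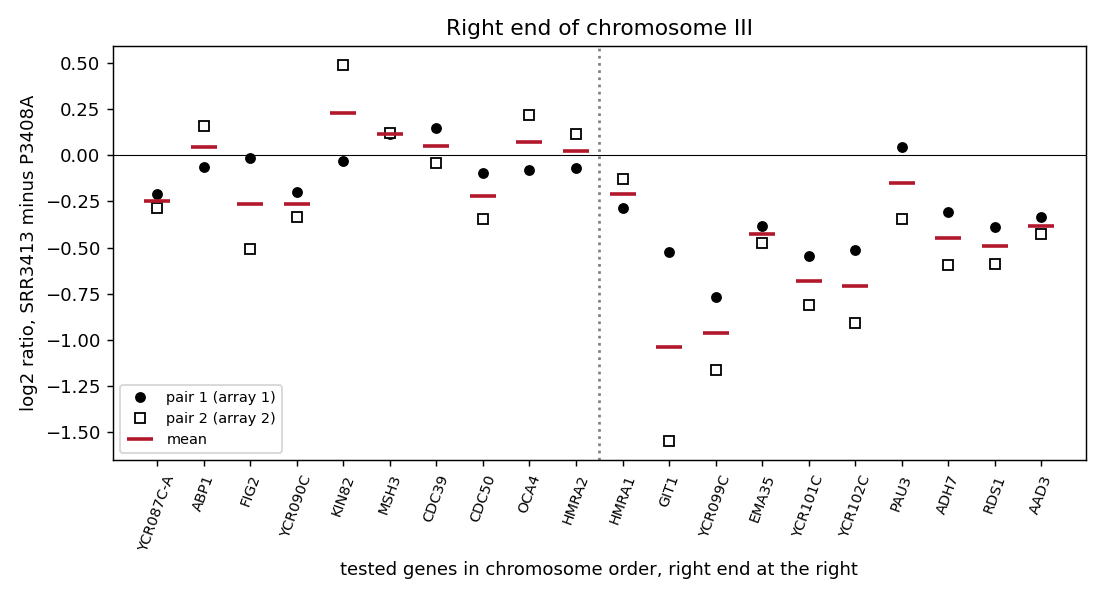
Difference in log2 ratio, tra1_SRR3413 minus tra1_P3408A, for the last 20 tested genes of the right arm of chromosome III in gene order, with pair 1 filled, pair 2 open and the mean as a red bar. The dotted line parts the last 10 genes, all with a mean below 0, from the 10 before them, whose median was 0.04.

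Genes of nutrient transport and NAD synthesis were also among the named ones. BNA1, an enzyme of NAD synthesis from tryptophan, stood at -2.33 and -2.88 in tra1_SRR3413, against -1.66 and -1.67 in tra1_P3408A, a difference of -0.94 or 1.92-fold (adjusted p = 0.409). BNA6 of the same pathway differed by -0.41 (-0.26 in pair 1 and -0.56 in pair 2). Of 17 biotin and NAD genes tested, 4 were lower, against 6.18% of all genes, and 0 higher, against 5.95%, at an unadjusted p of 0.05, but the median was -0.04. PHO84, the high-affinity phosphate transporter, stood at -3.11 and -2.83 in tra1_SRR3413, against -2.58 and -2.07 in tra1_P3408A, a difference of -0.65 (adjusted p = 0.409). The phosphate regulon as a whole did not share it, with a median of 0.02 over 21 genes. At an unadjusted p of 0.05, 2 were lower, against 6.18% of all genes, and 1 higher, against 5.95%. Its lowest member was GIT1 at -1.04, and PHO5, the secreted acid phosphatase, differed by 0.02 (-0.39 in pair 1 and 0.42 in pair 2). The aquaporin AQY1, a water channel, stood at -1.64 and -1.45 in tra1_SRR3413, against -0.58 and -0.63 in tra1_P3408A, a difference of -0.93. AQY2 differed by -0.50 and YLL053C, a neighbour that forms a single aquaporin gene with it in some strains and cannot be read as independent of it, by -0.65. ARO5 stood at -1.69 and -2.03 in tra1_SRR3413, against -1.10 and -1.24 in tra1_P3408A and YGL230C, of unknown function, at -0.49 and -1.60 in tra1_SRR3413, against 0.19 and -0.79 in tra1_P3408A. None of these passed.

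The largest list, the cytosolic ribosomal proteins, lay lower in tra1_SRR3413 by a small amount. Its median ratio was -0.01 in tra1_SRR3413 and 0.27 in tra1_P3408A, a median difference of -0.27 with -0.19 in pair 1 and -0.39 in pair 2, and -0.11 with the slide as a block. On the single arrays the list's median was 0.29 and -0.29 in tra1_SRR3413, against 0.46 and 0.11 in tra1_P3408A, so the arrays of the alleles overlap while each pair has the same sign. Of 135 tested, 54 were lower at an unadjusted p of 0.05, against 6.18% of all genes, and 0 were higher, against 5.95%. A negative difference in both pairs was seen in 104, against 29.4%. RPL23B stood at 0.14 and -0.72 in tra1_SRR3413, against 0.49 and 0.09 in tra1_P3408A and RPS29B at 0.42 and -0.39 in tra1_SRR3413, against 0.73 and 0.24 in tra1_P3408A. Many ribosomal protein genes exist as near-identical pairs, which the probes may not tell apart. The mitochondrial ribosomal proteins, 69 tested, had a median of -0.10, with 7 lower (10.1%, against 6.18% of all genes) and 0 higher. The 54 genes of ribosome biogenesis had a median of -0.07. Of these 1 was lower and 1 higher (1.85% each, against 6.18% and 5.95% of all genes).

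Of the biosynthetic pathways described here, lysine and GTP synthesis had negative medians and purine synthesis did not. All but 1 of the 10 lysine genes had a negative mean, and 5 were lower at an unadjusted p of 0.05, against 6.18% of all genes. Their median was -0.26, and -0.44 without array 1 of tra1_P3408A. LYS9 stood at -2.11 and -2.88 in tra1_SRR3413, against -1.81 and -2.05 in tra1_P3408A. LYS20, the homocitrate synthase at the start of the pathway, differed by -0.56 (-0.25 in pair 1 and -0.88 in pair 2) and LYS4 by -0.48. Each of the 5 GTP genes had a negative mean, and 2 were lower at an unadjusted p of 0.05, against 6.18% of all genes. Their median was -0.43, with -0.13 in pair 1 and -0.73 in pair 2, -0.72 without array 1 of tra1_P3408A and -0.09 without its array 2. The IMP dehydrogenases IMD3 and IMD4, which commit IMP to GTP, differed by -0.43 and -0.53, and the guanylate kinase GUK1 by -0.46. Over 11 purine genes the median was 0.02. At an unadjusted p of 0.05, 2 of them were lower, against 6.18% of all genes, and 2 higher, against 5.95%.

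The subunits of the complexes that hold Tra1 had small median differences. Over the 21 SAGA subunits tested the median difference was 0.04, with 2 higher, against 5.95% of all genes, and 0 lower, against 6.18%, at an unadjusted p of 0.05, and it was 0.14 with median centring. Over the 12 NuA4 subunits it was 0.14, and 0.058 with the slide as a block, with 2 higher and 0 lower. A positive difference in both pairs was seen in 8 SAGA and 6 NuA4 subunits, against 29% of all genes. TAF12, shared by SAGA and TFIID, differed by 0.48, SGF73 of the SAGA deubiquitinase module by 0.45 and EAF7 of NuA4 by 0.45. TRA1 itself counts in both lists.

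**Figure D4:**
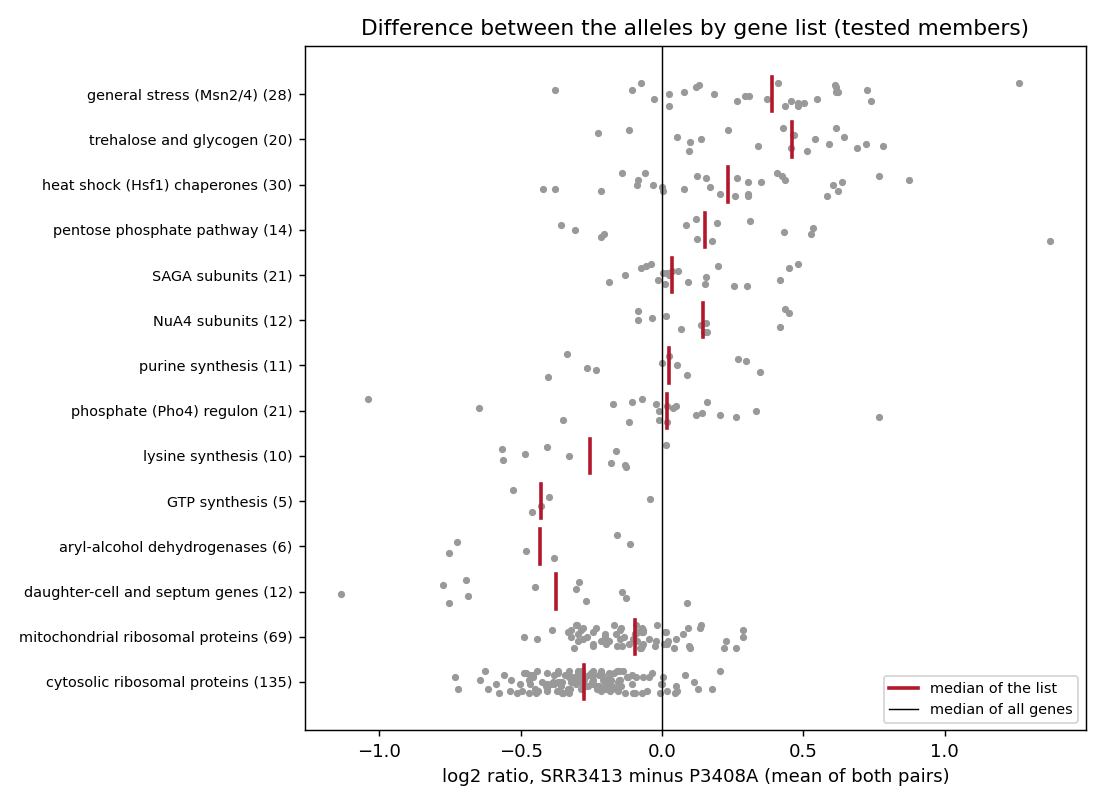
Mean difference in log2 ratio, tra1_SRR3413 minus tra1_P3408A, 1 grey point per tested gene for 14 gene lists, with the list's median in red, the number of tested genes in parentheses and the median of all genes as a black line. The medians run from 0.46 for trehalose and glycogen to -0.43 for the aryl-alcohol dehydrogenases, and the ribosomal protein genes are gathered around -0.27.

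The genes furthest from the reference strain were compared next. IMD2, an IMP dehydrogenase induced when GTP is short, stood at -3.82 and -4.50 in tra1_SRR3413, against -4.16 and -3.37 in tra1_P3408A. Its difference was -0.40 with opposite signs in the pairs (0.33 in pair 1 and -1.13 in pair 2; 95% interval -1.31 to 0.51). YAR075W, a fragment that resembles IMD2 closely enough for its probe to read IMD2 RNA, differed by -0.63 (0.20 in pair 1 and -1.47 in pair 2). ADE17, which makes IMP, stood at -3.80 and -3.67 in tra1_SRR3413, against -4.01 and -3.57 in tra1_P3408A, a difference of 0.05 (95% interval -0.25 to 0.35). HIS4 differed by -0.11 (95% interval -0.38 to 0.16) and SPL2, an inhibitor of low-affinity phosphate uptake, by -0.12 (95% interval -0.48 to 0.25). ADH2, the glucose-repressed alcohol dehydrogenase, differed by -0.07 (95% interval -0.33 to 0.20). Among the deepest genes AAD4, PHO84 and ADE1 lay lower in tra1_SRR3413, by -0.73, -0.65 and -0.40, with intervals that leave out 0 and adjusted p of 0.409 each.

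Of the genes furthest above the reference strain, the G1 cyclin PCL1 differed by -0.09 (95% interval -0.87 to 0.69), the ribonucleotide reductase subunit RNR1 by -0.03 (95% interval -0.44 to 0.37) and the wall glucanase SCW10 by 0.20 (95% interval -0.05 to 0.44). FET3, the ferroxidase of high-affinity iron uptake, differed by -0.29. HXT4, a glucose transporter of a family of close copies, stood at 0.59 and 1.09 in tra1_SRR3413, against 2.03 and 0.92 in tra1_P3408A, and its difference lay in pair 1 alone (-1.44 in pair 1 and 0.16 in pair 2). TMA10 stood at 1.57 and 1.96 in tra1_SRR3413, against 1.56 and 0.74 in tra1_P3408A, and YHR033W differed by 0.60 (0.51 in pair 1 and 0.69 in pair 2). INO1, the inositol phosphate synthase, and IME1, the inducer of meiosis, are examples of genes far apart in pair 2 alone (-0.57 in pair 1 and 2.16 in pair 2 for INO1, 0.03 in pair 1 and 1.79 in pair 2 for IME1).

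**Figure D5:**
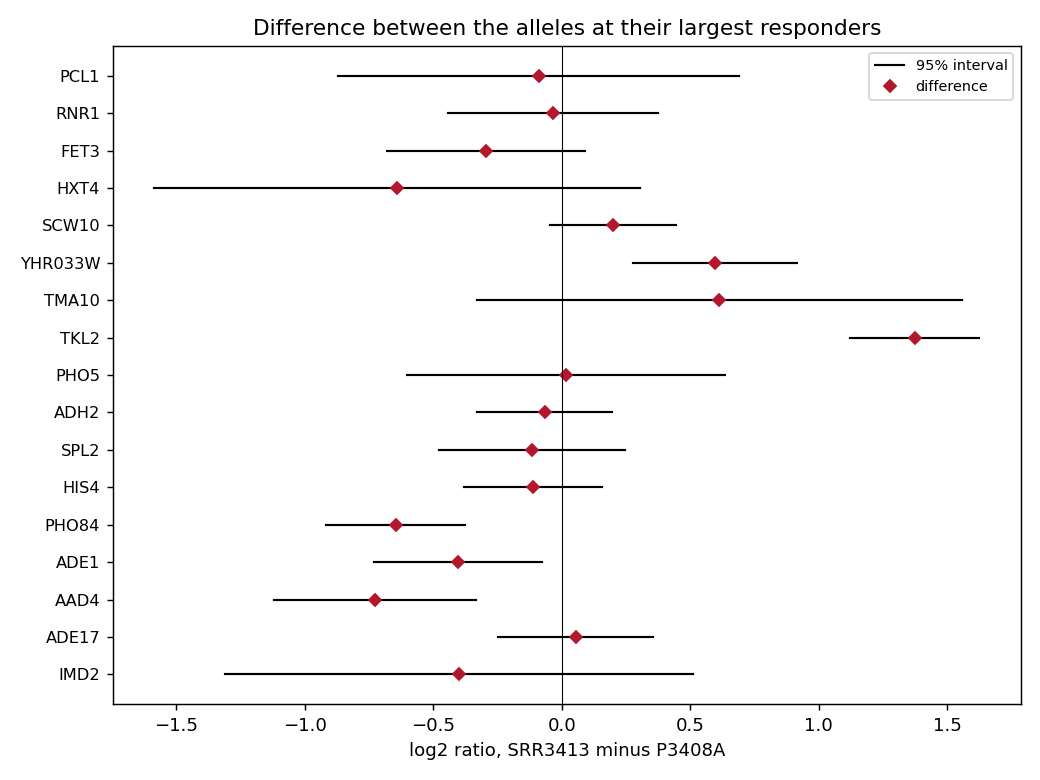
Difference in log2 ratio, tra1_SRR3413 minus tra1_P3408A, with its 95% interval from limma, for genes far from the reference strain in either allele and for PHO5 and ADH2. ADE17 sits at 0.05 and HIS4 at -0.11 with short intervals, TKL2 sits apart at 1.37, and the intervals of HXT4, IMD2 and TMA10 are wide.

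Since a ratio can move with either strain, the channels were also read separately. TKL2 differed between the alleles by 1.38 and 2.15 in the mutant channels of pairs 1 and 2 and by -0.02 and 0.80 in the reference channels. DSE4 differed by -0.90 and -0.95 in the mutant channels of pairs 1 and 2 and by 0.22 and 0.20 in the reference channels, and EGT2 by -0.72 and -0.78 in the mutant channels of pairs 1 and 2 and by -0.03 and 0.08 in the reference channels. GCY1 differed by 0.85 and 1.04 in the mutant channels of pairs 1 and 2 and by -0.03 and 0.25 in the reference channels. In these genes the mutant channels carried the larger share, and in TKL2 the reference channels also differed in pair 2. These genes do not stand for all named ones. In pair 2 PGM2 differed by 0.30 in the mutant channels and -0.29 in the reference channels, and DSE2 by -0.38 and 0.31. In pair 1 the values were 0.71 and 0.07 for PGM2 and -0.75 and -0.05 for DSE2.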

How the data were processed

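RNA was extracted with silica matrices, then amplified and dye-labelled by a company, per the labels' protocols. The deposited spot intensity values came from Agilent Feature Extraction, version 7.5.1 per the file headers. The deposited log ratio and series table hold log10 ratios of dye-normalized signals, with the table turned to mutant over reference (correlation with the turned log ratio of 0.992 or more per array) and its column medians between 0.00274 and 0.0101. Scale and direction of that table follow from this match.

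With limma 3.58.1 in R 4.3.3, mean and background signals were corrected by normexp (offset 50) and normalized within arrays by loess, with the 544 control spots at weight 0. Spots marked as outliers were left out (0.370% to 8.02% per array), every ratio was given as mutant over reference, and repeated spots were averaged per gene. The highest share of outliers was on array 2 of tra1_P3408A, in pair 2. Its array 1 had 1.27%, and the arrays of tra1_SRR3413 had 0.653% and 0.370%. Of 6256 genes, 2 were dim (not well above background in any channel on at least 2 arrays) and 135 lacked a value on some array, which left 6119. Symbols came from the RefSeq R64 table, where 5756 (92.0%) of the systematic names matched.

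The difference was a contrast in a fit of all 6 arrays blocked on array number (2 residual and 3.50 prior degrees of freedom), two-sided, with Benjamini-Hochberg adjustment over all 6119 genes and a threshold of 0.05. The numbers pair the arrays: they mark the dye orientation in the titles, and arrays with the same number deviated together from their allele means (correlations of 0.512, 0.930 and 0.467 over the pairs of alleles). The block also takes out deviations that alleles share through the reference. What the arrays of an allele share beyond the strain is not given in the sources used here, so p-values measure only the spread between these arrays. The test script was checked on simulated data. Genes named by rule are the 10 largest moderated statistics in each direction, since none passed, the 5 lowest and 5 highest ratios in each allele, and TRA1, LEU2, URA3, PHO5, PHO84, ADH2, IMD2 and ADE17. Genes outside this rule were picked with their values in view, and 1 member of the daughter-cell list is not reported here. The comparison and the 59 gene lists, and 1 list added later, were chosen with earlier results of these data known. Only some of the lists are described, and lists left out also exceeded the shares of all genes. At an unadjusted p of 0.05, 7 of 29 ergosterol genes were lower (24.1%, against 6.18%) and 0 higher. Of 13 telomeric and silencing factors, 3 were higher (23.1%, against 5.95%) and 0 lower. Figures were drawn with matplotlib.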

Additional observations from a re-analysis of the deposited data

Results flagged for a closer look

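Of the genes named here, 10 lay on opposite sides of the reference strain, with both arrays of tra1_SRR3413 on 1 side and both arrays of tra1_P3408A on the other, and so did 134 of all 6119 genes. The difference itself was tested in limma and passed in none of the 10 (adjusted p = 0.409 for each). UIP4, whose product binds the SUMO protease Ulp1, had the largest difference, 0.97, and stood at 0.26 and 0.78 in tra1_SRR3413, against -0.45 and -0.45 in tra1_P3408A. The others above the reference strain in tra1_SRR3413 and below it in tra1_P3408A differed by 0.64 (MBF1), 0.60 (CUR1), 0.59 (NTH1), 0.45 (SGF73) and 0.45 (EAF7). On CUR1 a tra1_P3408A array was at 0.00, level with the reference strain, as was a tra1_SRR3413 array on MBF1 (0.01). Those below it in tra1_SRR3413 and above it in tra1_P3408A differed by -0.69 (DSE2), -0.69 (SCW11), -0.65 (YLL053C) and -0.38 (AAD3).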

How the results depend on the processing

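No gene passed at the adjusted threshold under 20 of the 22 settings tried. Without array 1 of tra1_P3408A, 1480 genes were called higher and 1366 lower, and without array 2, 255 and 276, so the leave-one-out range is 0 to 1480 and 0 to 1366. The fit without the replicate block, which ignores the pairing, also called 0 genes, as did the fit with slide as the block, which drops it too. At an unadjusted p of 0.05, 364 genes were higher and 378 lower with the replicate block, 50 and 55 with no replicate block, 232 and 235 with slide as the block, 165 and 191 with only the 4 arrays of both alleles, and 98 and 119 with array 1 of tra1_S3463A counted as tra1_SRR3413. With the mutant channels alone 218 were higher. Leaving out an array gave 28 to 1665 higher and 31 to 1527 lower. These counts, and the counts of 0.5 or more in both pairs, were chosen after seeing the data. Of the 97 named genes, 78 kept their sign under all settings, and the cause of the turns was not tested. With slide as the block, signs turned for ADH2 (0.026), IMD2 (0.043), PCL1 (0.24), PHO5 (-0.41), RNR1 (0.16), TRA1 (-0.026) and URA3 (0.011). With the mutant channels alone they turned for HIS4 (0.031), RDS1 (0.061), RNR1 (0.0033) and SCW10 (-0.082). Without background correction PHO5 was -0.0026, and with median centring RNR1 was 0.054. Leaving out an array gave -0.094 to 0.20 for ADE17, -0.15 to 0.021 for ADH2, -0.78 to 0.24 for CTS1, -1.03 to 0.27 for HSP26, -1.37 to 0.094 for HXT4, -1.11 to 0.31 for IMD2, -0.52 to 2.12 for INO1, -0.37 to 0.077 for PAU3, -0.69 to 0.51 for PCL1, -0.44 to 0.47 for PHO5, -0.27 to 0.20 for RNR1, -0.31 to 0.083 for SPL2, -0.10 to 1.33 for TMA10 and -1.52 to 0.25 for YAR075W. The general stress median stayed between 0.20 and 0.44 and that of the cytosolic ribosomal proteins between -0.37 and -0.11. Nearly all spots were well above background, with AAD3 and ADH7 among the exceptions.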
